A study of Drosophila melanogaster with 21 samples.

Results

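The set comprised 8 stress response genes of Drosophila melanogaster, Xrp1, Irbp18, Gadd45, puc, Mmp1, Ets21C, chinmo and chrb, followed through male wing imaginal discs that lack parts of the dosage compensation machinery. They are 8 of the 17558 genes in the count table, all 8 passed the expression filter, and they were chosen by name as Xrp1 with its partner, targets of the Jun kinase (JNK) pathway and regeneration factors. The choice was made with the comparisons of mutant with heterozygous discs already known, so the members' values in those comparisons are given as a description. Poly-A RNA was sequenced in 21 libraries from larvae in the third instar reared at 25 °C. The 4 mutant groups were msl-2.227 (n = 4), msl-1.L60 (n = 3), mle.9 (n = 3) and roX1.SMC17A roX2.∆ (n = 3), each called a null mutant in the labels. The 3 control groups carried 1 copy of the msl-2 (n = 3), msl-1 (n = 3) or mle (n = 2) allele over the CyO-GFP balancer. Homozygous msl-2, msl-1 and mle mutants lack that balancer, so effects of the mutation and of the balancer cannot be told apart. The roX1 roX2 mutants have no control of their own in the labels. They were set against the mean of the 3 heterozygous groups, so those controls also serve the other 3 comparisons. The labels of the roX1 roX2 libraries name no CyO-GFP balancer. In that comparison effects of the mutation, the balancer and the stock cannot be told apart. Nothing in the labels says whether replicates came from separate larvae or how many discs were pooled, so p-values measure only the spread between these samples, which may be technical.

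The MSL complex, made of proteins including MSL1, MSL2 and the helicase MLE with the roX RNAs, raises transcription of the single X chromosome of males. Xrp1 is a basic leucine zipper transcription factor that is induced in disc cells with ribosomal or proteotoxic stress, acts as a dimer with Irbp18, and marks cells that are eliminated by fitter neighbours. JNK signalling is the main wound and stress kinase cascade of imaginal discs, where it drives repair and regeneration programmes as well as cell death.

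Total counts ran from 830905 to 4131600 per library. One library, msl-1 heterozygous replicate 2, stood apart: it had the lowest total, 6.17% of its counts were mitochondrial against 0.972% to 3.73% in the other 20 libraries, and it correlated with its group at a median of only 0.552. Values below are over 21 libraries unless 20 are named. The fit of 20 libraries without that library is given for some values only, so where it is absent the fits may still differ. roX2 had no read in the 3 roX1 roX2 mutant libraries and was at 0 to 3.69 CPM in mutants of msl-2, msl-1 or mle, against 13.9 to 378 CPM in the heterozygous libraries. Transcripts of the mutated protein genes were still counted, from 51.3 to 60.5 CPM for msl-2, from 114.9 to 154.5 CPM for msl-1 and from 218 to 243 CPM for mle in their own mutants. Levels are CPM, counts scaled to a common library size with factors from autosomal genes. Changes are log2 fold changes of mutant over heterozygous with the standard error (SE) of edgeR's quasi-likelihood fit. A gene counted as called at an adjusted p under 0.05 over all 11420 genes tested.

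Xrp1 was higher in every mutant library than in every heterozygous library. The gene lies on 3R (18914968 to 18926989, plus strand, dm6). It was at 962, 1186, 772 and 972 CPM in the 4 msl-2 mutant libraries, against 412, 399 and 492 CPM in the 3 msl-2 heterozygous ones. In msl-1 mutants it was at 1657, 1608 and 1707 CPM, against 594, 244 and 524 CPM in msl-1 heterozygotes, the 244 CPM being the library that stood apart. The msl-1 mutants lay within a narrow band far above their controls. In mle mutants it was at 1800, 1743 and 1503 CPM, against 469 and 464 CPM in mle heterozygotes, and in roX1 roX2 mutants at 1107, 1682 and 1298 CPM. The lowest of the 13 mutant libraries, an msl-2 mutant at 772 CPM, was above the highest of the 8 heterozygous libraries at 594 CPM. The log2 fold change was 1.16 ± 0.32 in msl-2 discs, 1.87 ± 0.34 in msl-1 discs, 1.85 ± 0.40 in mle discs and 1.59 ± 0.26 in roX1 roX2 discs (SE). The msl-2 value was not called in 21 libraries and was called in 20, at 1.20 ± 0.16, and the msl-1 value was 1.52 ± 0.20 in 20.

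Irbp18, the leucine zipper partner of Xrp1, had the same separation between genotypes. The gene lies on 3L (11097446 to 11098186, minus strand). It was at 136, 147, 117 and 140.0 CPM in msl-2 mutants, against 59.3, 48.2 and 52.1 CPM in msl-2 heterozygotes. The msl-1 mutants had 198, 232 and 228 CPM, against 58.0, 17.1 and 43.9 CPM in msl-1 heterozygotes. All mutant libraries of both stocks were above all of their controls, with the msl-1 mutants highest. The mle mutants had 149, 179.6 and 113 CPM, against 44.1 and 52.3 CPM in mle heterozygotes, and roX1 roX2 mutants had 168, 201 and 99.5 CPM. The lowest of the 13 mutant libraries was still above 59.3 CPM, the highest heterozygous value. The log2 fold changes were 1.34 ± 0.30, 2.46 ± 0.33, 1.61 ± 0.36 and 1.74 ± 0.24 in msl-2, msl-1 and mle discs and in roX1 roX2 discs (SE), and the msl-1 value was 2.06 ± 0.25 in 20 libraries.

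Per length of exon, Xrp1 and its partner stood at similar levels. Per kilobase, Xrp1 was at 202, 343, 349 and 282 CPM and Irbp18 at 220, 357, 239 and 255 CPM in msl-2, msl-1 and mle mutants and in roX1 roX2 mutants. In heterozygotes Xrp1 was at 90.0, 94.0 and 96.6 CPM per kilobase and Irbp18 at 86.7, 64.6 and 78.5 for msl-2, msl-1 and mle. The ratio of Xrp1 to Irbp18 per length lay between 0.836 and 1.70 in the mutants and between 0.883 and 1.81 in the heterozygotes. These pooled ranges overlapped, and the 1.81 was the library that stood apart. In the msl-1 stock they did not overlap: the ratio was 0.882 to 1.07 in mutants, against 1.30, 1.81 and 1.52 in heterozygotes. Of the Irbp18 exon bases, 15.5% overlap CG33947 on the opposite strand, and the strand setting of the counting is not given in the sources used here, so reads of these bases could belong to either gene. CG33947 itself averaged 63.8, 81.2, 73.8 and 62.4 CPM in msl-2, msl-1 and mle mutants and in roX1 roX2 mutants, against 34.4, 24.7 and 26.6 CPM in msl-2, msl-1 and mle heterozygotes. It rose in msl-1, mle and roX1 roX2 discs by 1.70 ± 0.30, 1.48 ± 0.33 and 1.14 ± 0.23 on the log2 scale (adjusted p = 0.000442, 0.0123 and 0.00297, edgeR), and its msl-2 value of 0.89 ± 0.27 passed only in 20 libraries. Its Spearman correlation with Irbp18 was 0.951 over 21 libraries that share the same depths and groups.

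Gadd45, a small stress-inducible protein that can activate kinases upstream of JNK, varied more in its change between the mutants than Xrp1 or Irbp18. The gene is a single exon on 2R (7249161 to 7250655, plus strand). It was at 47.4, 90.0, 40.2 and 56.9 CPM in msl-2 mutants, against 31.2, 30.4 and 12.3 CPM in msl-2 heterozygotes. Its msl-1 mutant values were 174, 208 and 235 CPM, against 13.7, 22.1 and 16.4 CPM in msl-1 heterozygotes. The msl-1 group was highest and the msl-2 mutants lowest among mutants, with no shared range between these groups. Its mle mutant values were 156, 159 and 108 CPM, against 16.2 and 16.5 CPM in mle heterozygotes, and roX1 roX2 mutants had 135, 142 and 100.4 CPM. In order of group means the msl-1 mutants were first and did not overlap the mle mutants. The mle and roX1 roX2 mutants overlapped each other, and the msl-2 mutants came next without overlapping the roX1 roX2 mutants. On the log2 scale the change was 1.26 ± 0.31 in msl-2 discs, 3.57 ± 0.35 in msl-1 discs, 3.103 ± 0.40 in mle discs and 2.72 ± 0.25 in roX1 roX2 discs (SE).

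**Figure D1:**
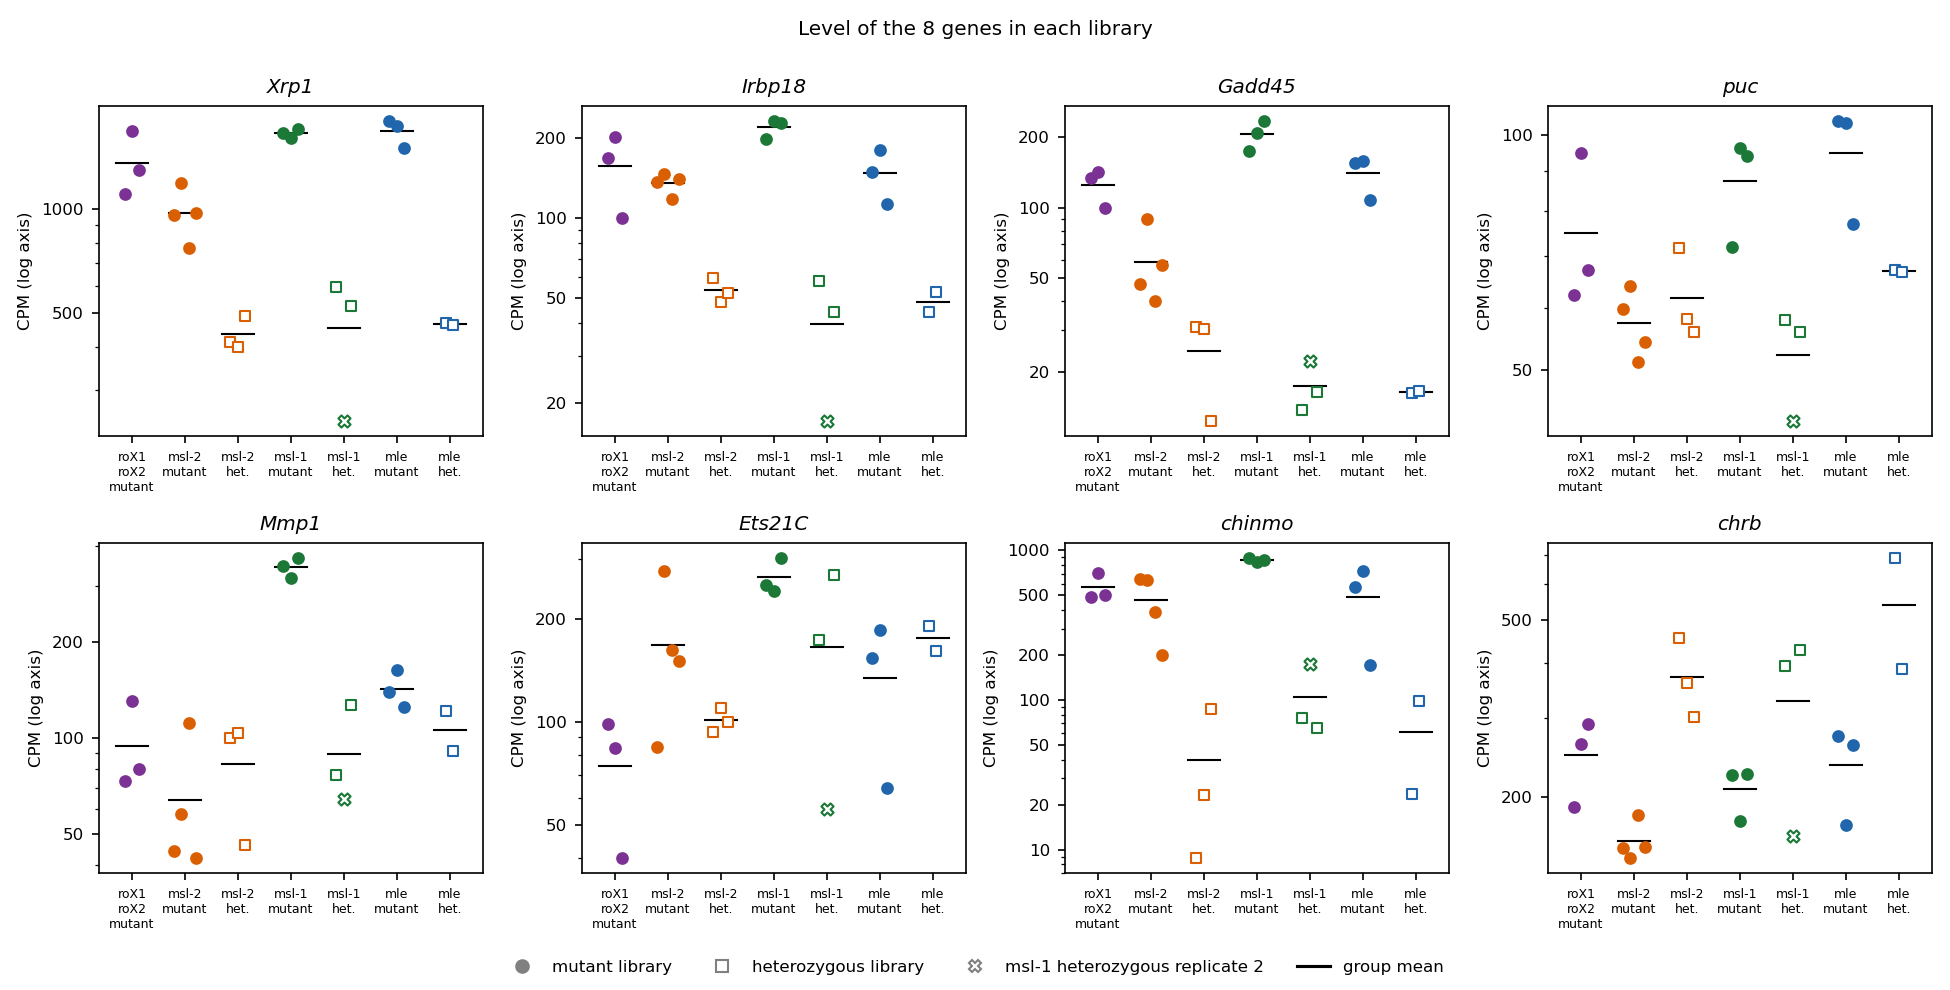
Level of each of the 8 genes in every library, in CPM on a log axis, by group: filled circles are mutant libraries, open squares heterozygous libraries, the cross is msl-1 heterozygous replicate 2, and lines are group means. For Xrp1 the 13 mutant libraries lie between 772 and 1800 CPM and the 8 heterozygous ones between 244 and 594 CPM, while the ranges of puc, Mmp1 and Ets21C overlap between mutant and heterozygous libraries.

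The JNK target puc, which encodes a phosphatase that switches JNK itself off, was called higher in msl-1 discs only. It lies on 3R (8105332 to 8122294, plus strand). In msl-1 mutants it was at 71.9, 96.1 and 94.1 CPM, against 58.0, 43.0 and 56.0 CPM in msl-1 heterozygotes. In mle mutants it was at 104, 104 and 76.9 CPM, against 67.2 and 66.7 CPM in mle heterozygotes. Both mutant groups were wholly above their controls, which in mle were only 2 libraries. In msl-2 mutants it was at 59.9, 64.2, 51.3 and 54.3 CPM, against 71.6, 58.1 and 56.0 CPM in msl-2 heterozygotes, and the roX1 roX2 mutants had 62.4, 94.97 and 67.3 CPM. These ranges overlapped with the controls. The log2 fold change was -0.11 ± 0.19 in msl-2 discs, 0.74 ± 0.21 in msl-1 discs, 0.50 ± 0.23 in mle discs and 0.31 ± 0.17 in roX1 roX2 discs (SE).

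Mmp1, a matrix metalloproteinase that cuts basement membrane during disc eversion and wound repair, stood out in msl-1 mutants. It lies on 2R (24671294 to 24688184, minus strand). It was at 345, 317 and 367 CPM in msl-1 mutants, against 76.9, 64.5 and 127 CPM in msl-1 heterozygotes. The mle mutants had 139.6, 163 and 125 CPM, against 122 and 91.1 CPM in mle heterozygotes. All mutants of both stocks were above their controls, in mle by a gap smaller than the spread within either group, and the msl-1 mutants were above every other library. In msl-2 mutants it was at 44.3, 57.9, 112 and 42.1 CPM, against 99.7, 104 and 46.3 CPM in msl-2 heterozygotes, and in roX1 roX2 mutants at 73.3, 131 and 80.3 CPM. On the log2 scale the change was -0.37 ± 0.34 in msl-2 discs and 1.94 ± 0.37 in msl-1 discs (SE). It was 0.42 ± 0.40 in mle discs and 0.03 ± 0.30 in roX1 roX2 discs. The msl-1 value was 1.69 ± 0.44 in 20 libraries. Pof overlaps 5.87% of the Mmp1 exon bases on the opposite strand, and its own log2 fold change was 1.05 ± 0.23 in msl-1 discs (adjusted p = 0.00268, edgeR).

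Ets21C, an ETS transcription factor that acts with AP-1 downstream of JNK, was not called in any of the 4 comparisons and its groups overlapped widely. It lies on 2L (544925 to 552923, minus strand). In msl-2 mutants it was at 84.2, 276, 162 and 151 CPM, against 93.6, 109.7 and 99.6 CPM in msl-2 heterozygotes. The msl-1 mutants had 252, 241 and 302 CPM, against 174, 55.7 and 268 CPM in msl-1 heterozygotes. The msl-2 mutants lay on both sides of their controls, and 2 of the 3 msl-1 mutant libraries were within the range of theirs. Its mle mutant values were 154, 186 and 63.9 CPM, against 191 and 161 CPM in mle heterozygotes, and roX1 roX2 mutants had 98.4, 84.0 and 39.9 CPM. The log2 fold change was 0.73 ± 0.44 in msl-2 discs, 0.67 ± 0.46 in msl-1 discs, -0.39 ± 0.51 in mle discs and -0.95 ± 0.41 in roX1 roX2 discs (SE). The msl-1 value was 0.20 ± 0.48 in 20 libraries. Of its exon bases, 28.3% overlap nAChRbeta3, a nicotinic acetylcholine receptor subunit on the opposite strand. The correlation of the pair over 21 libraries (Spearman, 0.839) was the highest of Ets21C with any of 8744 genes compared, and how their reads were divided was not tested.

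chinmo, a BTB zinc finger factor that keeps disc and neural cells in an early larval state and supports regeneration, had log2 fold changes of more than 3 in all 4 comparisons of 21 libraries. It lies on 2L (1651258 to 1704682, plus strand). In msl-2 mutants it was at 647, 639, 389.6 and 199.5 CPM, against 8.79, 23.2 and 87.7 CPM in msl-2 heterozygotes. Its msl-1 mutant values were 895, 835 and 869 CPM, against 75.9, 175 and 64.7 CPM in msl-1 heterozygotes. The highest control, 175 CPM, was again the library that stood apart. In mle mutants it was at 569, 724 and 172 CPM, against 23.4 and 97.99 CPM in mle heterozygotes, and roX1 roX2 mutants had 485, 709 and 507 CPM. Of the 13 mutant libraries, 12 were above all 8 heterozygous libraries and 13 above the other 7, so only the lowest mle mutant fell inside the controls' range. Its spread was wide in both genotypes: the coefficient of variation was 39.7% over mutant libraries and 77.5% over heterozygous ones. In 20 libraries the msl-1 change was 3.58 ± 0.93 on the log2 scale (SE). In 21 libraries the change was 3.54 ± 0.70 in msl-2 discs and 3.04 ± 0.70 in msl-1 discs. It was 3.01 ± 0.83 in mle discs and 3.16 ± 0.51 in roX1 roX2 discs. Single controls moved it: the mle value was 2.32 without mle heterozygous replicate 1 and 4.38 without replicate 2, neither called, and the msl-2 value was 3.08, not called, without msl-2 heterozygous replicate 1 and 4.86 without replicate 4.

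chrb, a relative of mammalian REDD1 that restrains TORC1 growth signalling, was the only member with a negative log2 fold change in all 4 comparisons. It lies on 3L (11487550 to 11499055, plus strand). In msl-2 mutants it was at 154, 145, 182 and 154 CPM, against 455, 359 and 302 CPM in msl-2 heterozygotes. In msl-1 mutants it was at 224, 177 and 225 CPM, against 393, 163 and 427 CPM in msl-1 heterozygotes. Leaving aside the 163 CPM of the library that stood apart, both mutant groups were below all of their controls. The mle mutants had 274, 173 and 261 CPM, against 689 and 387 CPM in mle heterozygotes, and roX1 roX2 mutants had 189.8, 263 and 291 CPM. All 13 mutant libraries, from 145 to 291 CPM, were below the other 7 heterozygous libraries, from 302 to 689 CPM. The log2 fold change was -1.23 ± 0.30 in msl-2 discs, -0.66 ± 0.33 in msl-1 discs, -1.19 ± 0.36 in mle discs and -0.70 ± 0.28 in roX1 roX2 discs (SE). In 20 libraries the msl-1 value was -1.03 ± 0.23. In these bulk samples fewer cells of a type and less RNA per cell cannot be told apart.

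Counted together, 3 members (Xrp1, Irbp18 and Gadd45) had all 13 mutant libraries above all 8 heterozygous libraries, as did 0.595% of all genes tested, and 0 had all below, beside 0.359% of all genes. Without the library that stood apart chinmo joined them, beside 0.984% of genes, and chrb was below throughout, beside 1.69%. In the msl-2 comparison 4 of 8 members were called, Irbp18, Gadd45 and chinmo higher and chrb lower, where 1.21% of all genes were called (0.56% higher and 0.648% lower). In the msl-1 comparison 6 of 8 were called, all higher, where 38.2% of all genes were (12.8% higher and 25.4% lower): Xrp1, Irbp18, Gadd45, puc, Mmp1 and chinmo. In the mle comparison it was Xrp1, Irbp18, Gadd45 and chinmo, 4 of 8 and all higher, beside 3.35% of all genes (1.38% higher and 1.97% lower), and in roX1 roX2 discs the same 4, all higher, beside 5.33% (3.41% higher and 1.93% lower). These shares are given as a description, because the same contrasts chose the members. The 20-library fit called 5, 7, 5 and 5 members, chrb lower among them in every comparison, beside 10.7%, 23.1%, 13% and 14.4% of all genes. The msl-2 count was 0 when msl-2 heterozygous replicate 1 or 2 was left out. The mle count was 1 when either mle heterozygous library was left out. The msl-1 and roX1 roX2 counts stayed between 5 and 7 and between 4 and 5 over all 21 such omissions. When only the groups compared were fitted, 3 members were called in msl-1 discs, with Xrp1, puc and chinmo no longer among them. Against the msl-1 heterozygotes alone the roX1 roX2 change of chinmo was 2.43 and that of chrb -0.40, and against the mle heterozygotes alone that of chrb was -1.12 (log2).

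**Figure D2:**
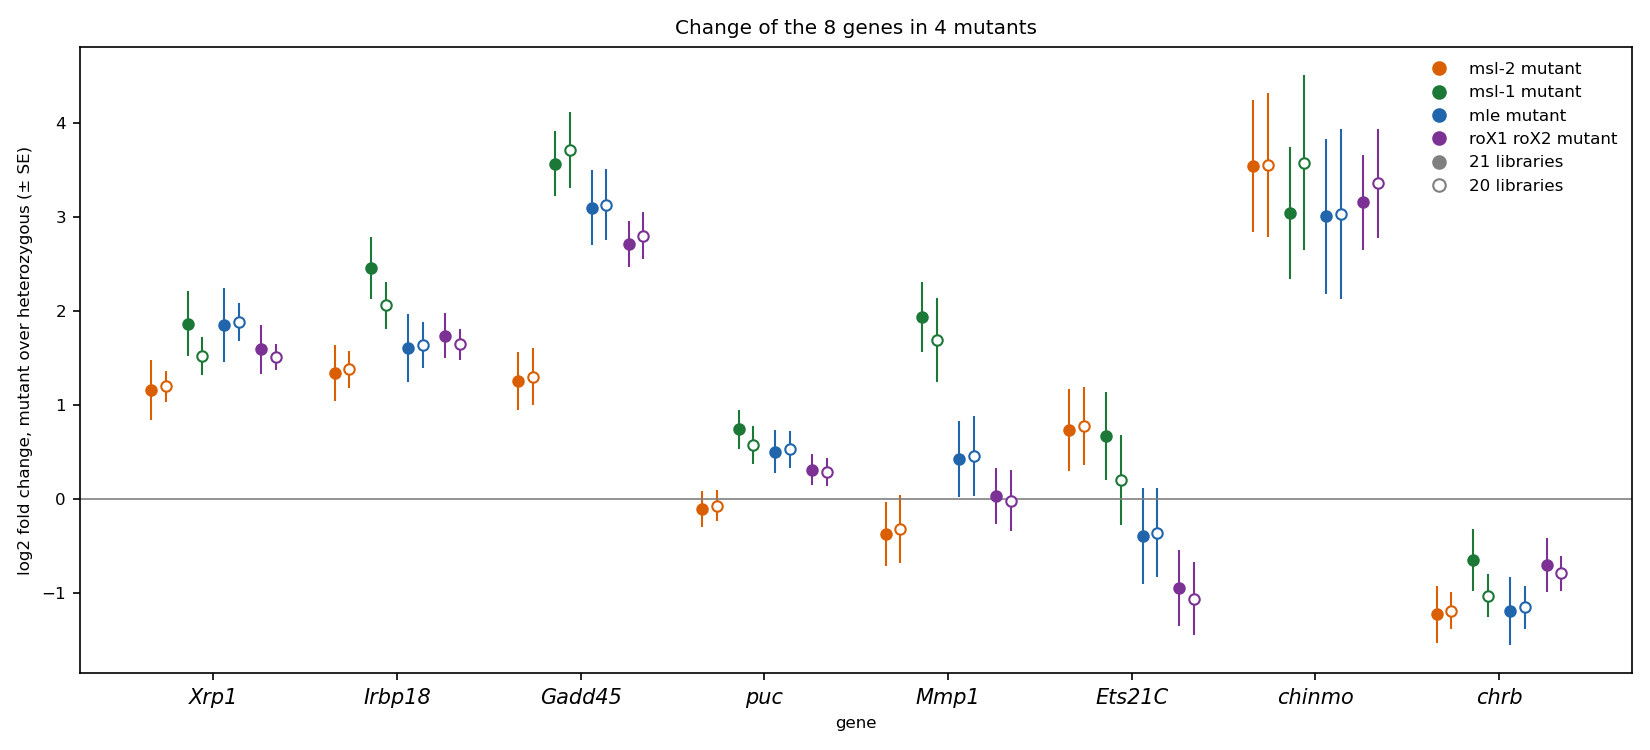
Log2 fold change of each of the 8 genes in the 4 comparisons of mutant with heterozygous discs, with bars of 1 SE: filled points are fits of 21 libraries, open points of 20 libraries without msl-1 heterozygous replicate 2. Among the filled points Gadd45 ranges from 1.26 in msl-2 to 3.57 in msl-1 discs and chinmo from 3.01 to 3.54, and chrb is below 0 in all 4 comparisons of either fit.

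The change in msl-1 discs was larger than that in msl-2 discs for Gadd45 and Mmp1. These contrasts rest on the comparisons that chose the set, so the values are descriptive. The msl-1 change exceeded the msl-2 change by 2.31 ± 0.45 for Gadd45 and by 2.31 ± 0.49 for Mmp1 on the log2 scale (SE), both past the threshold in the 21 and 20 library fits and in all 27 alternative settings. For puc the excess was 0.85 ± 0.28, past the threshold in 21 libraries and not in 20 (0.64 ± 0.26), and the call was lost in 13 of the 27 settings. These 3 of 8 members stand beside 26.2% of all genes in that contrast. For Irbp18 the excess of 1.11 ± 0.43 did not pass. No member passed in edgeR's test of the msl-1 change against the mle change (1 at an unadjusted p under 0.05, 0 with DESeq2), where 0.228% of genes did. Mmp1 had the largest difference there, 1.52 ± 0.53. None passed for mle against msl-2 either (1 at an unadjusted p under 0.05, 0 with DESeq2), beside 0.0263% of genes, and Gadd45 differed by 1.84 ± 0.48.

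Between the heterozygous groups, a contrast the choice of members did not use, no member passed in edgeR's test of 21 or of 20 libraries. For msl-1 against msl-2 heterozygotes 0 of 8 members were called, with 0 at an unadjusted p under 0.05 and 1 with DESeq2, although 42.4% of all genes were called with the library that stood apart and 10.4% without it. The DESeq2 call was chinmo. In 20 libraries 2 members were under an unadjusted 0.05, Xrp1 at 0.42 ± 0.19 and Ets21C at 1.19 ± 0.48 (log2), and neither passed. Of the 21 single omissions 2 gave a call, Irbp18 at -0.78 ± 0.33 without msl-1 heterozygous replicate 1 and chinmo at 2.74 ± 0.73 without msl-2 heterozygous replicate 4. For msl-1 against mle heterozygotes and for mle against msl-2 heterozygotes it was again 0 of 8, with 0 at an unadjusted p under 0.05 and 0 with DESeq2, beside 0.0876% and 0.289% of all genes. In the mle against msl-2 heterozygotes chrb, at 0.53 ± 0.23, was under an unadjusted 0.05 in 20 libraries, and Ets21C, at 0.88 ± 0.13, passed when only those groups were fitted. The largest of these differences in 21 libraries was chinmo in msl-1 over msl-2 heterozygotes, at 1.38 ± 0.68 on the log2 scale (adjusted p = 0.0966, edgeR), and in 20 libraries it was 0.84 ± 0.85, below the value of Ets21C. The controls of chinmo ranged from 8.79 CPM to 175 CPM, so its baseline is known less precisely than that of Xrp1 or puc, whose heterozygous coefficients of variation without the library that stood apart were 13.9% and 10.3%.

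Across libraries, Xrp1, Irbp18 and Gadd45 varied together. The Spearman correlations of log2 CPM over 21 libraries were 0.860 for Xrp1 and Irbp18, 0.864 for Xrp1 and Gadd45 and 0.905 for Irbp18 and Gadd45, and chinmo correlated with Xrp1 at 0.822. puc correlated with Xrp1 at 0.734, with Gadd45 at 0.726 and with Mmp1 at 0.718. chrb ran against chinmo at -0.670 and its correlation with puc was 0.0571. Ets21C reached no more than 0.447 with any other member. The libraries share their genotype groups and depths, so these values describe the grouping as well as the genes.

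The genes whose levels were most like each member were taken from 8744 genes averaging 5 CPM or more in the 21 libraries. For Xrp1 they were CG31549, CG10916 and CG2017, with Spearman correlations from 0.939 to 0.952. For Irbp18 they were agt, a DNA repair alkyltransferase, CG33158 and IscU, a scaffold for iron-sulphur clusters, from 0.961 to 0.965. Gadd45 was nearest to Ctu2, which takes part in tRNA thiolation, GstE6 and CG3008, from 0.952 to 0.960. chinmo was nearest to Cyp317a1, Kank and GstE6, from 0.927 to 0.942, so GstE6 was named for both. puc was nearest to Tep4, sog and wash, from 0.858 to 0.881, and Mmp1 to CG34180, CG1146 and ImpL2, from 0.820 to 0.830 (0.8195 for ImpL2). chrb was nearest to RhoGAP5A, Inx2 and hng3, from 0.883 to 0.900. Without the library that stood apart the 3 genes nearest to Xrp1 were different, Mocs1, CG15784 and rdog, from 0.949 to 0.961. For Irbp18, Gadd45, puc, Mmp1 and chinmo 1 of the 3 changed. Genes with high correlation share the same contrast of mutant and heterozygous groups.

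The gene lists below, like the members, were chosen with earlier results of these data known, so their counts and p-values are a description. Among 16 tested genes of the Xrp1, ATF4 and unfolded protein stress list, edgeR called 1 higher in msl-2 discs and 10 in msl-1 discs. It called 3 higher in mle discs and 4 in roX1 roX2 discs, and none lower. Of all genes, 0.56%, 12.8%, 1.38% and 3.41% were called higher in that order. In 20 libraries 1, 8, 6 and 6 list genes rose and 2, 0, 1 and 1 fell. Of all genes, 10.7%, 23.1%, 13% and 14.4% were called in either direction in that fit. At an unadjusted p under 0.05 there were 3, 10, 7 and 6 list genes in either direction in 21 libraries. DESeq2 called 2, 10, 6 and 5 of the list, all higher. The medians of the list's log2 fold changes were -0.01, 0.88, 0.38 and 0.24, against 0.00479, -0.17, -0.08 and -0.10 for all genes. GstE6, a glutathione S-transferase of a cluster of close copies whose reads could be shared, rose in all 4: it was at 16.6 to 76.3 CPM in msl-2 mutants and 199 to 241 CPM in msl-1 mutants, against 2.59 to 3.08 CPM and 1.58 to 5.69 CPM in their heterozygotes. Its log2 fold changes were 4.16 ± 0.55, 5.74 ± 0.57, 5.42 ± 0.67 and 4.61 ± 0.40 (adjusted p between 9.30e-08 and 0.000319, edgeR). ref(2)P, the selective autophagy receptor p62, was at 303 CPM in msl-1 mutants, against 66.2 CPM in msl-1 heterozygotes, and rose by 2.19 ± 0.27 (adjusted p = 1.19e-05, edgeR). p53 rose in msl-1 by 1.97 ± 0.27 (adjusted p = 2.98e-05, edgeR) and was at 0.00428 ± 0.25 in msl-2 discs. PEK, the kinase that relays endoplasmic reticulum stress to ATF4, rose by 0.73 ± 0.17 in roX1 roX2 discs (adjusted p = 0.00894, edgeR). Hsc70-3, the chaperone BiP, was not called in 21 libraries but fell in msl-2, mle and roX1 roX2 discs in 20, by 0.97 ± 0.16, 1.17 ± 0.19 and 0.89 ± 0.16. Leaving out msl-1 heterozygous replicate 2 took the mle count to 6 and the roX1 roX2 count to 6, while the mle count was 1 for 13 other single omissions, and the roX1 roX2 count was 2 without mle heterozygous replicate 1 or roX1 roX2 replicate 4. The msl-1 count lay between 7 and 10 over all single omissions.

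Of the 18 JNK cascade genes, 0 were called in msl-2 discs (6 at an unadjusted p under 0.05, 1 higher and 3 lower with DESeq2). In msl-1 discs 4 rose and 4 fell, in mle discs 1 rose and 1 fell, and in roX1 roX2 discs 1 rose. Beside the msl-1 counts, 12.8% of all genes were called higher and 25.4% lower. In mle discs 1.38% were called higher and 1.97% lower, and in roX1 roX2 discs 3.41% were called higher. In 20 libraries 1 rose and 3 fell in msl-2 discs, 3 rose and 5 fell in msl-1 discs, 2 rose and 4 fell in mle discs, and 3 rose and 3 fell in roX1 roX2 discs. The gene higher in msl-1, mle and roX1 roX2 discs in 21 libraries was Traf4, an adaptor that couples receptors to JNK kinases, at 89.9, 75.6 and 84.6 CPM in msl-1 mutants, against 23.2, 46.8 and 20.8 CPM in msl-1 heterozygotes. Its log2 fold changes were 1.47 ± 0.26 in msl-1 discs, 1.47 ± 0.29 in mle discs and 1.13 ± 0.20 in roX1 roX2 discs (adjusted p = 0.000434, 0.00444 and 0.00101, edgeR), and in 20 libraries it also rose in msl-2 discs, by 0.99 ± 0.18. wgn, a TNF receptor, fell by 1.602 ± 0.28 in msl-1 and by 1.24 ± 0.28 in mle discs (adjusted p = 0.000423 and 0.0133, edgeR). kay, the Fos subunit of AP-1, rose in msl-1 discs by 1.52 ± 0.32 and wnd, a kinase upstream of JNK, fell there by 1.80 ± 0.43 (adjusted p = 0.00248 and 0.00589, edgeR). hep, the kinase that activates JNK, was at -0.78 ± 0.21 in msl-2 discs and not called in 21 libraries. It fell in all 4 comparisons in 20 libraries, by 0.75 ± 0.12, 1.12 ± 0.15, 0.76 ± 0.15 and 0.48 ± 0.12 (log2). The mle calls in this list were lost when either mle heterozygous library was left out, and the wgn call also without mle mutant replicate 2. The msl-1 counts of higher genes ran from 2 to 9, the 9 without msl-1 heterozygous replicate 1, and those of lower genes from 2, without either mle heterozygous library, to 5.

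Of the 23 tested JNK targets and disc regeneration genes, 0 were called in msl-2 discs (6 at an unadjusted p under 0.05, 0 with DESeq2), 9 rose and 2 fell in msl-1 discs, 2 rose in mle discs and 3 rose and 1 fell in roX1 roX2 discs. Of all genes, 12.8% were called higher and 25.4% lower in msl-1 discs. The shares were 1.38% higher and 1.97% lower in mle discs, and 3.41% higher and 1.93% lower in roX1 roX2 discs. Ilp8, the hormone that damaged discs send to delay metamorphosis, was at 695, 944 and 855 CPM in msl-1 mutants, against 0.527, 20.9 and 1.45 CPM in msl-1 heterozygotes, the 20.9 CPM being the library that stood apart. It was at 74.1, 229 and 31.6 CPM in mle mutants, against 0.600 and 2.06 CPM in mle heterozygotes, and at 2.92 to 5.54 CPM in msl-2 mutants, against 0.380 to 0.647 CPM in msl-2 heterozygotes. It rose in msl-1 by 6.86 ± 0.93, in mle by 6.37 ± 1.20 and in roX1 roX2 discs by 3.19 ± 0.79, and the msl-2 value of 2.82 ± 1.37 did not pass (adjusted p = 6.36e-05, 0.00474, 0.0205 and 0.392, edgeR). In 20 libraries it rose by 9.57 ± 1.20 in msl-1 discs and by 4.08 ± 0.94 in roX1 roX2 discs. upd1, a ligand of the JAK/STAT pathway, rose in msl-1 discs by 2.94 ± 0.33 and in mle discs by 1.43 ± 0.37, and Socs36E, a JAK/STAT feedback inhibitor, rose in msl-1 discs by 2.55 ± 0.37 and in roX1 roX2 discs by 1.48 ± 0.27 (adjusted p = 4.44e-06, 0.0315, 6.23e-05 and 0.00156, edgeR). scaf rose in msl-1 by 2.32 ± 0.37 and in roX1 roX2 discs by 1.11 ± 0.28, whereas Wnt6, a Wnt ligand, fell in roX1 roX2 discs by 1.11 ± 0.20 (adjusted p = 0.000189, 0.0217 and 0.00116, edgeR). The mle count was 5 without msl-1 heterozygous replicate 2. The roX1 roX2 count of higher genes was 1 without roX1 roX2 replicate 3 and 6 without msl-1 heterozygous replicate 2. With msl-1 heterozygous replicate 2 left out, 13% and 14.4% of all genes were called in either direction in mle and roX1 roX2 discs.

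Of the 13 TORC1 and hypoxia genes, the list that chrb belongs to by function, 0 were called in msl-2 and 0 in roX1 roX2 discs (3 and 2 at an unadjusted p under 0.05; 1 and 0 with DESeq2). In msl-1 discs Ldh, lactate dehydrogenase, and Rheb rose, by 2.88 ± 0.54 and 0.91 ± 0.27, and Sesn, a brake on TORC1, fell by 2.19 ± 0.67 (adjusted p = 0.00110, 0.0163 and 0.0186, edgeR). These 2 higher and 1 lower of 13 genes stand beside 12.8% of all genes called higher and 25.4% called lower. In 20 libraries Sesn, at -1.08 ± 0.60, did not pass, Rheb was at 0.56 ± 0.20, and raptor fell by 0.64 ± 0.21. Rheb, the activator of TORC1, was at 116 CPM in msl-1 mutants, against 61.4 CPM in msl-1 heterozygotes. In mle discs raptor, a TORC1 subunit, fell by 0.78 ± 0.21 (adjusted p = 0.0455, edgeR), a call lost in 12 of the 21 single omissions. scyl, the close relative of chrb, was not called in 21 libraries, where its log2 fold change was -0.69 ± 0.42 in msl-2 discs. In 20 libraries it fell there by 0.65 ± 0.19, and REPTOR, a transcription factor held back by TORC1, rose by 1.19 ± 0.35. The list medians were 0.02, 0.21, 0.00 and -0.06 in msl-2, msl-1 and mle discs and in roX1 roX2 discs.

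**Figure D3:**
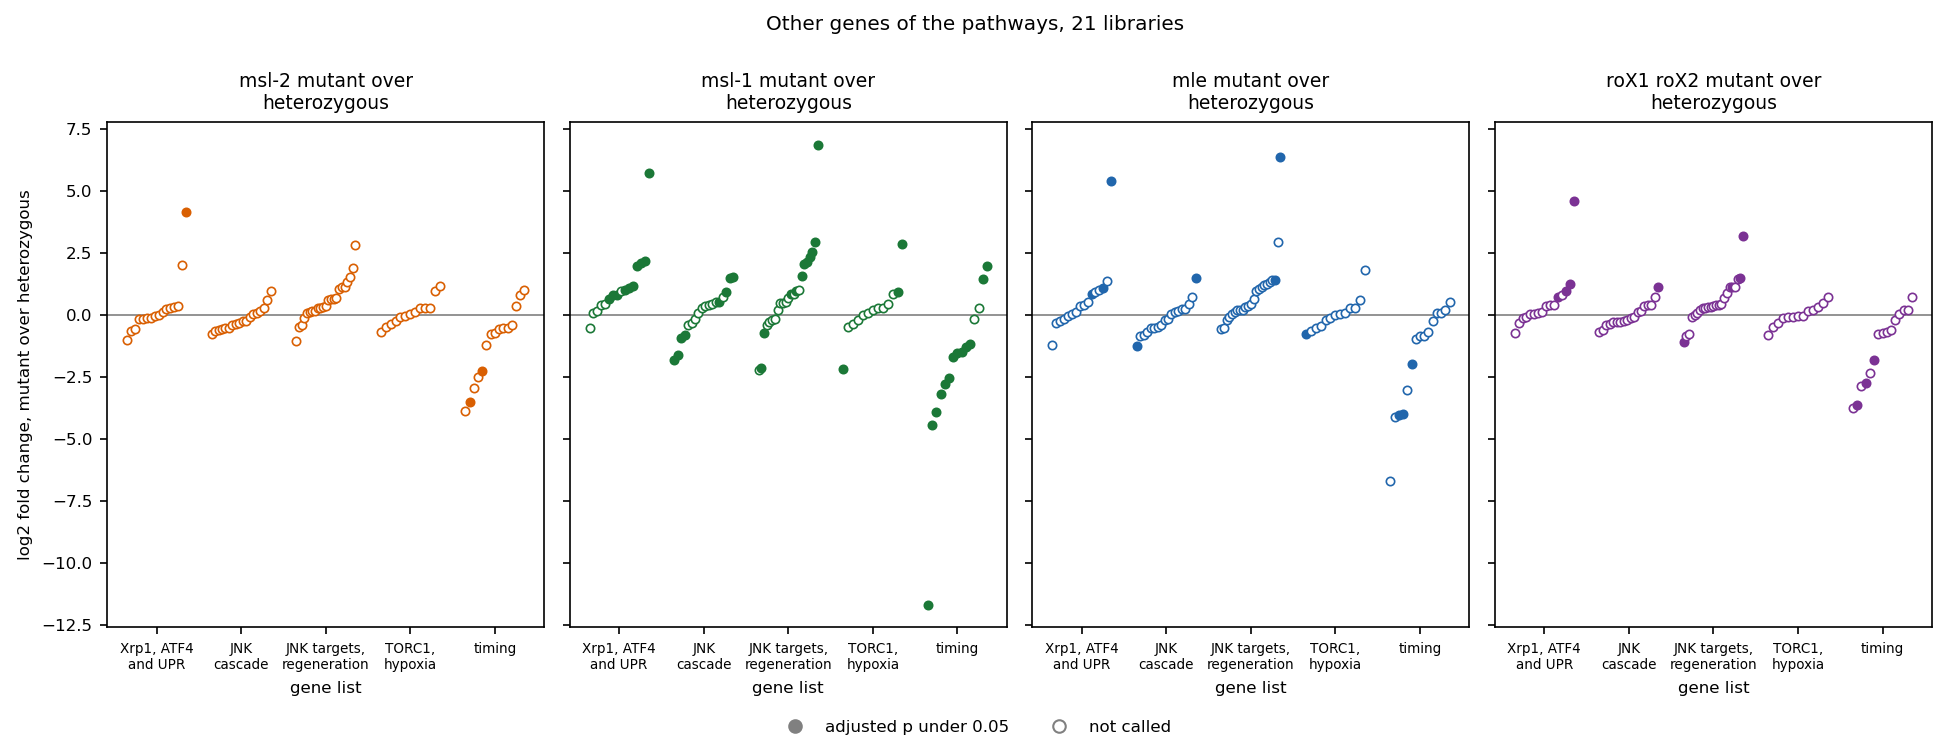
Log2 fold change (mutant over heterozygous, 21 libraries) of each tested gene of the 5 pathway lists in the 4 comparisons; filled points passed an adjusted p under 0.05. Most filled points above 0 are in msl-1 discs, where 10 of 16 genes of the Xrp1, ATF4 and unfolded protein stress list rose, and the timing list has 11 of 15 genes below 0 called there.

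Of 15 tested genes of the chinmo and developmental timing list, 2 fell in msl-2 discs, 2 rose and 11 fell in msl-1 discs, and 3 fell in mle and 3 in roX1 roX2 discs. The 11 that fell in msl-1 discs stand beside 25.4% of all genes called lower there. In msl-2, mle and roX1 roX2 discs 0.648%, 1.97% and 1.93% of all genes were called lower. In 20 libraries 1 rose and 3 fell in msl-2 discs, 2 rose and 9 fell in msl-1 discs, 7 fell in mle discs, and 1 rose and 7 fell in roX1 roX2 discs. Eip78C and Hr4, nuclear receptors induced by the moulting hormone ecdysone, fell in all 4, except that Hr4 did not pass in msl-1 discs in 20 libraries. Hr4 was at 14.6 to 25.5 CPM in msl-2 mutants, against 387, 258 and 18.8 CPM in msl-2 heterozygotes, so that 1 control library overlapped the mutants. Its log2 fold changes were -3.51 ± 0.82, -3.21 ± 0.97, -4.02 ± 0.98 and -3.64 ± 0.88 (adjusted p = 0.0480, 0.0199, 0.0315 and 0.0204, edgeR), and those of Eip78C were -2.27 ± 0.39, -1.55 ± 0.41, -1.96 ± 0.43 and -1.82 ± 0.36 (adjusted p = 0.00329, 0.00953, 0.0121 and 0.00308, edgeR). The msl-2 calls in this list were lost without msl-2 heterozygous replicate 1, and 1 was left in 15 other single omissions. The mle calls were lost without mle heterozygous replicate 1 or mle mutant replicate 2. The msl-1 count fell to 6 without msl-1 mutant replicate 1 or 2, and the roX1 roX2 count to 1 without mle heterozygous replicate 1 or roX1 roX2 replicate 3. The summed level of the 15 genes was 2756 to 4000 CPM in the mutants, against 5019 to 14290 CPM in the 7 heterozygous libraries other than msl-1 heterozygous replicate 2, which had 2538 CPM. Without that library the sums did not overlap between genotypes.

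Within the heterozygotes chinmo varied against some of the timing genes and not others. Its Spearman correlation over the 7 heterozygous libraries other than msl-1 heterozygous replicate 2 was negative for 11 of the 15 genes and positive for 4, from -0.893 for ImpE2 to 0.964 for EcR, the ecdysone receptor, with Syp at -0.0714 and Eip75B at 0.429. Of the other members, Irbp18 was negative for 12 of the 15 genes over the same libraries. Positive values numbered 13 for Ets21C, 12 for chrb, 11 for Mmp1 and 10 for puc. Xrp1 had 9 negative and 6 positive values, and Gadd45 had 6 negative and 8 positive. Over the 13 mutant libraries the signs differed for several members. Negative values there numbered 12 of 15 for Irbp18, Gadd45, Mmp1, Ets21C and chinmo, 11 for puc, 9 for Xrp1 and 3 for chrb. ImpE1 and ImpE2 were singled out after their values were seen. ImpE1, an ecdysone-inducible gene, was at 907, 626 and 103.5 CPM in msl-2 heterozygotes and at 1756 and 222 CPM in mle heterozygotes, and the heterozygous libraries with the lowest ImpE1 had the highest chinmo. The Spearman correlation of chinmo with ImpE1 was -0.857 over 7 heterozygous libraries and -0.555 over 13 mutant libraries, and with ImpE2 it was -0.779 over the mutants. In msl-2 heterozygous replicate 4 and mle heterozygous replicate 2, whose ImpE1 was 103.5 and 222 CPM, chinmo was at 87.7 and 97.99 CPM and Xrp1 at 492 and 464 CPM. The lowest mutant values came from different libraries: 172 CPM for chinmo in mle mutant replicate 3 and 772 CPM for Xrp1 in msl-2 mutant replicate 3. Whether these heterozygous libraries match the mutants in stage was not tested. The share of the members' differences that goes with developmental timing was not tested.

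**Figure D4:**
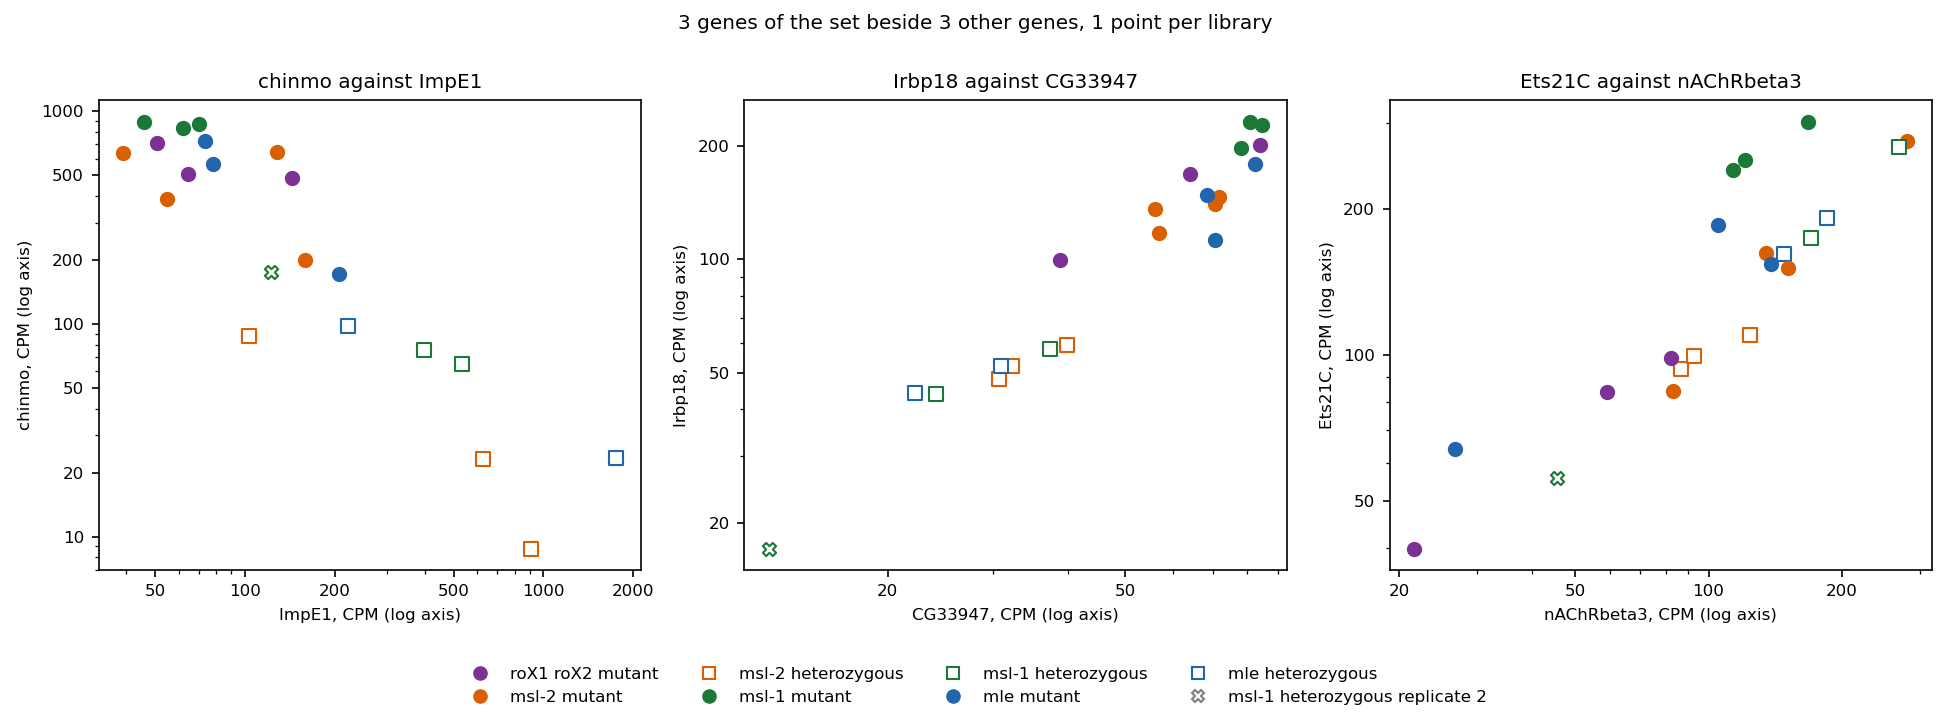
Levels of 3 members against another gene in each library, in CPM on log axes: chinmo against ImpE1, Irbp18 against CG33947 and Ets21C against nAChRbeta3; filled circles are mutants, open squares heterozygotes, the cross is msl-1 heterozygous replicate 2. chinmo is high where ImpE1 is low, and in the other pairs libraries high in 1 gene are high in the other (Spearman 0.951 and 0.839).

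Markers of other tissues moved with some libraries. Sums for heterozygotes are over the 7 libraries other than msl-1 heterozygous replicate 2 unless it is named. Wing disc epithelium markers summed to 2587 to 4183 CPM in the mutants, against 4630 to 5658 CPM in the heterozygotes, with no listed marker at 0. Larval muscle markers summed to 535 to 1220 CPM in msl-2 mutants, against 162 to 209 CPM in msl-2 heterozygotes. They reached 1269 CPM in mle mutant replicate 3, with 319 and 304 CPM in the other mle mutants, against 220 and 350 CPM in mle heterozygotes. That library was the lowest mle mutant for every member but chrb. Fat body markers summed to 5159 and 386 CPM in msl-2 mutant replicates 2 and 4, against at most 76.9 CPM in the heterozygotes. Replicate 1 was also above the heterozygotes, and replicate 3 was within their range at 48.3 CPM. In msl-2 discs 7 of the 7 tested fat body markers were at an unadjusted p under 0.05 (edgeR, 21 libraries) and 0 were called. Their median log2 fold change was 4.01. Gut markers reached 3724 CPM in 1 roX1 roX2 library, against at most 89.2 CPM in the heterozygotes. Hemocyte markers summed to 320 to 751 CPM in the mutants, against 479 to 949 CPM in the heterozygotes. Markers of neurons and glia summed to 74.6 to 179.5 CPM in the mutants, against 114 to 235 CPM in the heterozygotes, and those of adult muscle precursors to 201 to 342 CPM in the mutants, against 242 to 351 CPM in the heterozygotes. Trachea markers summed to 1456 to 2792 CPM in the mutants, against 1428 to 2703 CPM in the heterozygotes. Salivary gland and germline markers stayed at or under 21.1 and 18.2 CPM in the mutants, against up to 28.9 and 20.8 CPM in the heterozygotes, with up to 2 and 1 of the listed genes at 0 in a library. msl-1 heterozygous replicate 2 had 1719 CPM of disc epithelium and 388 CPM of trachea markers, both below every other library. It had 901 CPM of larval muscle, 204 CPM of fat body, 114 CPM of gut, 495 CPM of neuron and glia, 442 CPM of adult muscle precursor, 89.8 CPM of salivary gland and 100.6 CPM of germline markers, each above the other heterozygotes. The part of these markers in the members' differences was not tested.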

How the data were processed

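RNA was extracted from dissected wing discs by TRIzol with Direct-zol columns and sequenced from TruSeq Stranded mRNA libraries, per the labels' protocols. The authors deposited unnormalised read counts, 1 row per FlyBase gene and 1 column per library. Per the submitters' processing notes the builds were BDGP6 and dm6, and the tools included Subread 1.6.1 (featureCounts), STAR 2.6.1b and DESeq2 1.18.1. How strand was set is not stated there.

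Counts were fitted with edgeR 4.0.16 in R 4.3.3 (limma 3.58.1; robust quasi-likelihood, 1 mean for each of 7 groups, 21 libraries). Genes passed filterByExpr, TMM factors came from autosomal genes, and Benjamini-Hochberg adjustment covered 11420 genes (10367 in 20 libraries). SE was taken as the size of the log2 fold change divided by the square root of F. DESeq2 1.42.0, other filters and scalings, a replicate block, fits of only the groups compared and leaving out each library were alternatives. Correlations used log2 CPM with a prior count of 2. FlyBase identifiers of 17252 of 17558 genes matched the dm6 annotation, and the 306 others held 5.53% of counts. The scripts were also run on simulated counts with the same spread in every library, so that run does not cover a library that stands apart.

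Members and gene lists were chosen with earlier results of these data known. The lists were Xrp1, ATF4 and unfolded protein stress; JNK cascade; JNK targets and disc regeneration; TORC1 and hypoxia; chinmo and developmental timing; and cell type markers. Named genes were the 8 members, up to 4 called genes of each list with the smallest adjusted p per comparison, and the 3 genes with the highest correlation with each member. Other genes named (overlapping genes, scyl, the ImpE genes) were chosen after their values were seen. Symbols that matched no identifier, AsnS, RpS12, Duox, wg, InR, Tor, S6k, br, let-7-C and Imp among them, were not analysed here. Fold changes of weakly counted genes are imprecise at these depths, and errors cover these samples only.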

Additional observations from a re-analysis of the deposited data

Results flagged for a closer look

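For 3 members the msl-1 change minus the msl-2 change passed the threshold in 21 libraries, each with the larger change in msl-1 discs. The members were chosen with the underlying comparisons known, so these values are a description. In the same contrast 26.2% of all genes were called. Gadd45 differed by 2.31 on the log2 scale, with 174 to 235 CPM in msl-1 mutants and 40.2 to 90.0 CPM in msl-2 mutants. Mmp1 differed by 2.31, with 317 to 367 CPM in msl-1 mutants and 42.1 to 112 CPM in msl-2 mutants. puc differed by 0.85, with 71.9 to 96.1 CPM in msl-1 mutants and 51.3 to 64.2 CPM in msl-2 mutants, and no longer passed in 13 of 27 settings, among them the replicate block (0.87) and leaving out msl-1 heterozygous replicate 2 (0.64). Between the msl-1 and msl-2 heterozygotes 42.4% of all genes were called in 21 libraries and 10.4% without msl-1 heterozygous replicate 2. When only those groups were fitted, 2 genes were called. No member had a sample far from the rest of its group by Dixon's criterion, which was applied to the msl-2 mutants, the group of 4.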

How the results depend on the processing

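Counts of called genes moved with the processing. Over all genes, 138, 4360, 383 and 609 were called in msl-2, msl-1 and mle discs and in roX1 roX2 discs, 2997, 26 and 3 for msl-1 minus msl-2, msl-1 minus mle and mle minus msl-2, and 4841, 10 and 33 for msl-1 against msl-2, msl-1 against mle and mle against msl-2 heterozygotes. Leaving out 1 library gave 25 to 1108, 1696 to 6599, 30 to 1350, 262 to 1490, 802 to 5978, 4 to 2045, 1 to 25, 1076 to 7337, 3 to 3706 and 11 to 80 in that order. With only the groups compared they were 1218, 442, 829, 273, 1346, 1, 24, 2, 0 and 176. DESeq2 called 359, 764 and 940 in msl-2, mle and roX1 roX2 discs, 167 and 36 for the differences from mle, and 480 and 64 for the mle heterozygotes. Without an expression filter they were 87, 199, 13 and 1 in msl-2, mle, msl-1 minus mle and mle minus msl-2, and with CPM of at least 1 in 3 libraries 239 in mle and 6 for msl-1 against mle heterozygotes. Against the msl-1 or mle heterozygotes alone roX1 roX2 discs had 2013 and 305.

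Replicate numbers did not pair the samples: deviations of same-numbered libraries correlated between -0.281 and 0.0933. A replicate block gave 87 in msl-2, 399 in roX1 roX2 discs, 1477 and 11 for msl-1 minus msl-2 and minus mle, and 3046, 5 and 14 between the heterozygotes.

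Of the members' reported values, 6 changed sign. Over single omissions puc in msl-2 discs ran from -0.19 to 0.0107, above 0 without msl-2 heterozygous replicate 1, and Mmp1 in roX1 roX2 discs from -0.27 to 0.18, below 0 in 4 of them. Mmp1 was also -0.17 against the mle heterozygotes alone. The Gadd45, chrb and chinmo calls in msl-2, msl-2 and mle discs were each lost in 19 of 27 settings, whereas those of Xrp1, Irbp18, Gadd45 and chinmo in roX1 roX2 discs were kept in all 31. The cause of these changes was not tested. Depth limits the precision of weakly counted genes such as Ilp8 in heterozygotes.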
